A study of Mus musculus with 6 samples.

Results

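The 10 genes described here encode the actins, troponins and tropomyosin of the thin filament, the Z-disc protein alpha-actinin 2 and cardiac myosin-binding protein C. They were taken from a given list of Ensembl IDs: Actc1 (ENSMUSG00000068614), Acta1 (ENSMUSG00000031972), Acta2 (ENSMUSG00000035783), Tnnt2 (ENSMUSG00000026414), Tnni1 (ENSMUSG00000026418), Tnni3 (ENSMUSG00000035458), Tnnc1 (ENSMUSG00000091898), Tpm1 (ENSMUSG00000032366), Actn2 (ENSMUSG00000052374) and Mybpc3 (ENSMUSG00000002100). All 10 were found among 48505 genes in the deposited tables. Myosin-binding protein C is a thick filament protein, so for Mybpc3 the name thin filament and Z-disc is loose. The measurement was the signal in libraries made from RNA fragments bound by an antibody to N6-methyladenosine (m6A), a methyl mark on RNA; such a library is an immunoprecipitate, or IP. RNA came from pooled hearts of wild-type FVB/NJ fetuses of both sexes on gestational day 15. The 3 sham libraries came from litters of dams that breathed filtered room air. The 3 nano-TiO2 libraries came from litters of dams that inhaled titanium dioxide nanoparticles at a target of 12 mg/m3 for 360 minutes a day, on 6 days out of 8 starting on gestational day 5. All dams were 10 weeks old, and 14 were used in the series. Which litters went into which pool is not given in the labels, and every p-value therefore measures only the spread between these samples, which may be technical.

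The m6A mark is set by a methyltransferase complex, often near stop codons and in last exons, and proteins that read it affect the stability and translation of the RNA. In heart muscle, calcium binds troponin C (Tnnc1), troponin I releases its hold on actin, and troponin T (Tnnt2) passes the movement to tropomyosin (Tpm1), which uncovers the myosin-binding sites of the thin filament. Alpha-actinin 2 cross-links the barbed ends of the filaments at the Z-disc. The slow skeletal troponin I (Tnni1) is the isoform of the fetal heart, and cardiac troponin I (Tnni3) takes its place around and after birth. Cardiac alpha-actin (Actc1) is the main sarcomeric actin of the heart, while skeletal (Acta1) and smooth muscle (Acta2) alpha-actin are also made in the developing heart.

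The tables give each gene as windows, most of them starting 25 nucleotides apart. A gene's IP level is the sum of its windows, on either of 2 deposited scales. On the normalized scale a value is the read count over a size factor, 1 for each library. The adjusted scale holds the same windows divided again by 1 factor for each gene and library, and what that factor was made from is not stated. Libraries held 20205024 to 31523675 reads. Normalized values summed to 27762102, 34527421 and 29937922 in sham replicates 1 to 3 and 22545948, 19886237 and 22752137 in nano-TiO2 replicates 1 to 3. The deposited scaling thus left a lower total in every nano-TiO2 library. The 4 gene IDs with the most reads, which have no symbol here, took 20.6% to 35.2% of reads in the sham and 8.03% to 18.0% in the nano-TiO2 libraries. The part of these differences in the values of the sarcomere genes was not tested, other than by the scalings given beside them. An IP level does not tell methylation from abundance: less of a transcript, fewer cells that make it and less of the mark on it cannot be told apart on the normalized scale.

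The label of heart tissue was checked on these genes, several of which define heart muscle. By mean IP level among the 18566 genes that averaged 10 normalized reads or more, Actc1 ranked 5, Tnnt2 12, Tpm1 14, Tnni1 16, Tnnc1 27, Tnni3 32, Mybpc3 53, Actn2 61 and Acta2 62. Acta1 ranked 794. All 10 genes therefore passed the filter on low values, and all lay in the top 20% of genes by level. Together they held 3.09% ± 0.35 of reads in sham libraries and 3.26% ± 0.22 in nano-TiO2 libraries (SD, n = 3). Outside the 4 most abundant IDs the share was 4.17% ± 0.25 in sham libraries and 3.80% ± 0.45 in nano-TiO2 libraries, and the groups overlapped. Markers of other cell types could not be matched to the file's IDs and were not tested.

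Per window, which allows for gene length, the order of mean normalized level over the 6 libraries ran from Actc1 at 3246 reads through Tnnc1 at 1734, Tnni1 at 776, Tnni3 at 764, Tpm1 at 506, Tnnt2 at 427, Acta2 at 388, Mybpc3 at 234 and Actn2 at 226 to Acta1 at 70.4. The ranges of neighbours over the 6 libraries overlapped, except between Actc1 and Tnnc1, Acta2 and Mybpc3, and Actn2 and Acta1. Compared within each library, Tnnc1 also lay above Tnni1 and Tnni3 above Tpm1 in all 6. Windows with few or no reads lower this mean for some genes: 86 of 144 windows of Tnni1, 98 of 259 of Tpm1 and 59 of 310 of Tnnt2 had a mean under 1 read.

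The contrast in level is steepest between the sarcomeric alpha-actins, Actc1 and Acta1, whose proteins are nearly identical. Their promoters, from 250 bases before to 50 bases after the gene start, are printed here because these alone among the 10 genes held a strict CArG box (CC, then 6 letters that are each A or T, then GG), the motif bound by serum response factor. The sequences are from RefSeq on GRCm38.p6. Actc1 lies at chr2:114052826-114053125 and Acta1 at chr8:123894726-123895025, both on the minus strand, and both read 5′ to 3′ along the gene with the CArG box in capitals.
Actc1 promoter: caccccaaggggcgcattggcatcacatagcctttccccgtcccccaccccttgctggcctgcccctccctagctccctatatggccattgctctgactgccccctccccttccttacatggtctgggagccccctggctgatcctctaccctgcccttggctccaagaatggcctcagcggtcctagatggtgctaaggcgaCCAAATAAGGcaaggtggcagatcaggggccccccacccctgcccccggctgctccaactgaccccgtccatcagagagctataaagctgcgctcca
Acta1 promoter: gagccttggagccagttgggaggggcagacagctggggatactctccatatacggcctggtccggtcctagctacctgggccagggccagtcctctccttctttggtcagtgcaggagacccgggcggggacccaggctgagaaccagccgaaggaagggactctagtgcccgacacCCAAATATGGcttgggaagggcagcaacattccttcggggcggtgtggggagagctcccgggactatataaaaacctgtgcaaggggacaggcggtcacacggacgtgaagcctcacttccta

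The box begins at position -47 from the gene start in Actc1 and at -73 in Acta1. Searched on both strands, it occurred in 535 of 32851 RefSeq mouse promoters of this length, or 1.63%. With at most 1 letter off, the promoters of Acta2, Tnnt2 and Tpm1 held one as well, and so did 21.1% of all promoters. Both promoters also held the letters TATAAA, which 13.6% of all promoters hold. The MEF2 site occurred in Mybpc3 (3.19% of all promoters) and the letters AGATAA in Tnnt2 (11.2%), and matches to different motifs were allowed to overlap. All 10 genes were matched by symbol, with 12 promoter entries. A match describes the letters and not a bound factor.

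The first comparison asked how the IP levels of these genes differed between nano-TiO2 and sham hearts on the normalized scale. Acta2, Tnni1 and Tnnc1 fell and no other of the 10 genes was called, although Tnni1 turned to 0.07 after quantile normalization. Over all 18566 genes 12.0% were called lower and 24.0% higher (limma on log2(reads + 1), Benjamini-Hochberg adjusted p under 0.05). The median log2 difference of the 10 genes was -0.45, against 0.13 over all genes. In the top 20% of genes by level, where all 10 genes lie, 32.5% were called lower and the median was -0.27, so 3 of 10 is near the share in that band. The band runs from a mean of 969 to 1952997 reads, and all but Acta1 ranked 62 or higher, so it matches their level only roughly. The groups did not overlap in 5 of 10 genes, each lower in nano-TiO2, against 18.5% of all genes. For overlap the share at like level was not computed. Nano-TiO2 replicate 2 was the lowest library for 7 of the 10 genes, and sham replicates 2 and 3 were each the highest for 5.

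Among the actins, Actc1 had normalized levels of 230992, 232940 and 230308 reads in sham replicates 1 to 3 and 193861, 163209 and 195263 in nano-TiO2 replicates 1 to 3. Every nano-TiO2 library lay below every sham library. The log2 difference was -0.33 ± 0.16 (SE), with an adjusted p of 0.125 in limma, so it did not pass the threshold. Acta2, which smooth muscle and early heart muscle cells make, had 42781, 43920 and 35046 reads in sham libraries and 26725, 27886 and 25985 in nano-TiO2 libraries. The groups were apart, and the nano-TiO2 libraries lay close together. Acta2 fell by 0.59 ± 0.14 (SE) on the log2 scale, with an adjusted p of 0.0125 in limma; without nano-TiO2 replicate 3 the adjusted p was 0.052. Acta1, the skeletal isoform, had 5169, 5220 and 4114 reads in sham libraries and 4742, 3911 and 2625 in nano-TiO2 libraries. These groups overlapped, and nano-TiO2 replicate 3 was lowest. Its log2 difference was -0.40 ± 0.22 (SE), with an adjusted p of 0.19 in limma. Without nano-TiO2 replicate 3 the difference was -0.16, and with array quality weights Acta1 became a call, at -0.82 with an adjusted p of 0.0069 in limma, in a fit that called 18.6% of all genes lower. Reads of such similar paralogs could be shared between them by the authors' counting, which is not described in the sources used here.

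Among the troponins, Tnnc1, the calcium sensor, had 81324, 85747 and 102557 reads in sham libraries and 59614, 38799 and 58629 in nano-TiO2 libraries. All nano-TiO2 libraries lay below the sham libraries. Tnnc1 fell by 0.80 ± 0.20 (SE) on the log2 scale, the largest difference among the 10 genes on this scale, with an adjusted p of 0.0142 in limma. The fetal inhibitory subunit Tnni1 had 122015, 142731 and 143909 reads in sham libraries and 90742, 75975 and 95470 in nano-TiO2 libraries. These groups were apart as well. Tnni1 fell by 0.64 ± 0.16 (SE) on the log2 scale, with an adjusted p of 0.0138 in limma. The adult subunit Tnni3 had 58793, 73628 and 89175 reads in sham libraries and 56507, 36649 and 61285 in nano-TiO2 libraries. Sham replicate 1 lay within the nano-TiO2 range, so the groups overlapped. On the log2 scale its difference was -0.53 ± 0.23 (SE), with an adjusted p of 0.105 in limma. Tnnt2, the subunit that binds tropomyosin, had 105230, 142310 and 159430 reads in sham libraries and 143073, 97651 and 147218 in nano-TiO2 libraries. Its groups overlapped widely, and its log2 difference was -0.07 with a 95% interval from -0.58 to 0.43 and an adjusted p of 0.83 in limma.

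Tpm1, which covers the myosin-binding sites of actin at rest, had 122563, 146356 and 193004 reads in sham libraries and 114515, 87057 and 122850 in nano-TiO2 libraries. Sham replicate 1 alone lay inside the nano-TiO2 range. The log2 difference was -0.50 ± 0.21 (SE), with an adjusted p of 0.0997 in limma. Actn2, the cross-linker of the Z-disc, had 34621, 38685 and 38100 reads in sham libraries and 31706, 28466 and 33314 in nano-TiO2 libraries. The groups were apart by a small gap. On the log2 scale its difference was -0.25 ± 0.14 (SE), with an adjusted p of 0.178 in limma. Mybpc3, which ties myosin to the thin filament, had 37606, 44017 and 40694 reads in sham libraries and 34217, 40665 and 35680 in nano-TiO2 libraries. Its groups overlapped. The log2 difference was -0.15 ± 0.14 (SE), with an adjusted p of 0.453 in limma.

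Scaling set how many of these differences stood. With libraries scaled to equal totals the median of all genes was 0.61, none of the 10 genes was called against 0.894% of all genes lower and 43.2% higher, and Acta2, Tnni1 and Tnnc1 stood at -0.09, -0.14 and -0.30. With equal totals outside the 4 most abundant IDs the median was 0.39 and Tnnc1 alone fell, by 0.53 with an adjusted p of 0.048 in limma, where 5.43% of all genes fell and 34.0% rose. After quantile normalization none fell, Tnni1 stood at 0.07 and Tnnt2 rose by 0.67 with an adjusted p of 0.014 in limma, where 15.1% of all genes fell and 16.6% rose. Acta2 and Tnnc1 were below 0 under each of these scalings. With TMM scaling, and with edgeR's quasi-likelihood test on the recovered reads, 3 of the 10 genes fell, against 13.9% and 14.2% of all genes. DESeq2 on those reads called 7 lower, adding Actc1, Tnni3, Tpm1 and Actn2, and called 18.8% of all genes lower and 20.6% higher. With the median of a gene's windows in place of the sum the same 3 genes fell, and of the 8877 genes with a window to test 23.5% fell and 8.26% rose. With no filter on low genes Tnnc1 alone was called, against 5.80% of all genes lower, and limma's adjusted p was 0.0501 for Acta2 and 0.0975 for Tnni1.

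The general relation of difference to gene size also touches these genes. Genes with 8 to 52 windows, among them Tnnc1 with 41, had a median log2 difference of -0.48 over all genes. Genes with 53 to 108 windows, among them Actc1, Acta1, Acta2 and Tnni3, had -0.09, and those with 109 to 171, among them Tnni1, Actn2 and Mybpc3, had 0.11. The median was 0.34 for 172 to 265 windows, where Tpm1 lies, and 0.81 for 266 or more, where Tnnt2 lies. With the trend on windows per gene removed, Acta2 and Tnni1 again fell and Tpm1 fell by 1.02 with an adjusted p of 0.022, while Tnnc1 stood at -0.53 with an adjusted p of 0.089 (limma). In that fit 12.8% of all genes fell and 11.4% rose.

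**Figure D1:**
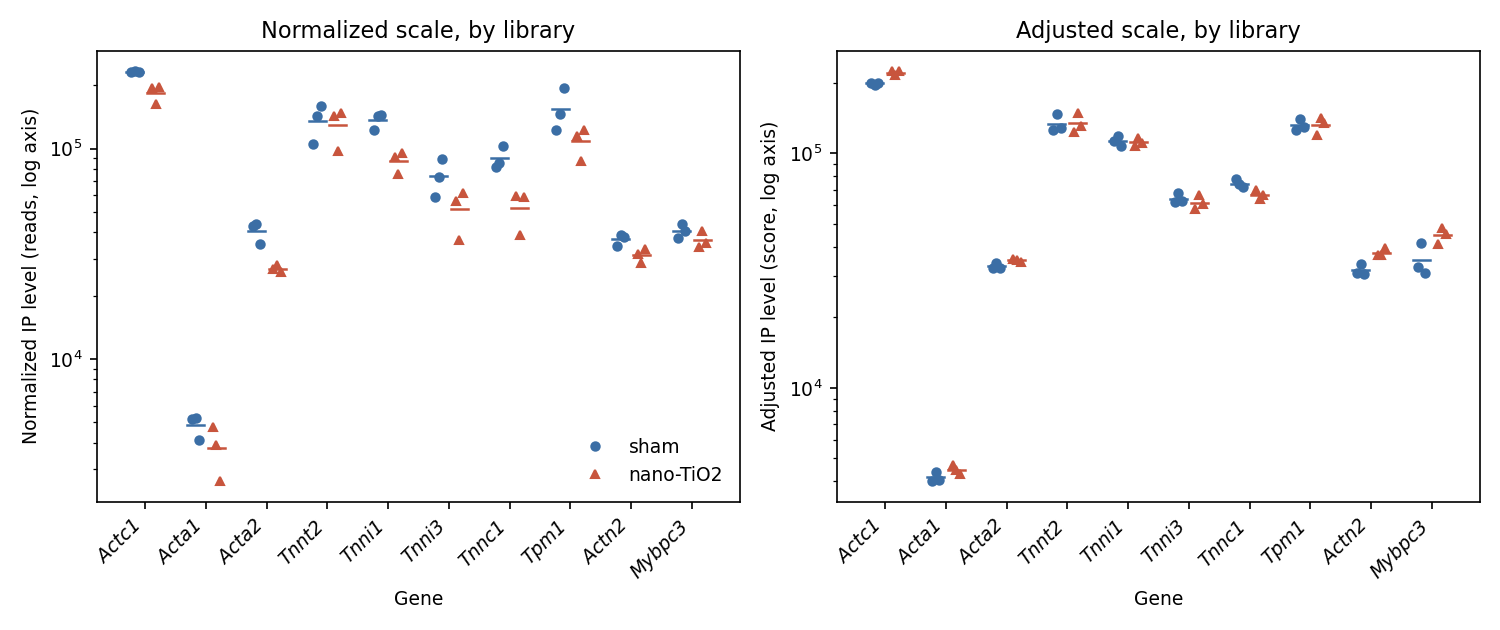
IP level of each gene in each library on a log axis, as normalized reads (left) and as the adjusted score (right); circles are sham and triangles nano-TiO2 libraries in replicate order, and lines are group means of 3. On the left the groups are apart for Actc1, Acta2, Tnni1, Tnnc1 and Actn2, all lower in nano-TiO2 on the deposited scaling; on the right they are apart for Actc1, Acta2 and Actn2, higher in nano-TiO2, and for Tnnc1, lower.

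The second comparison used the adjusted scale. Here the 10 genes lay much closer together between groups, from 0.896-fold for Tnnc1 to 1.28-fold for Mybpc3, against 0.582-fold to 0.953-fold on the normalized scale. None of the 10 passed the threshold, and 0% of 19361 genes did (limma, Benjamini-Hochberg), although 3592 genes had an unadjusted p under 0.05. Of the 10 genes, Actc1, Tnnc1, Actn2 and Mybpc3 were among those. The groups did not overlap with nano-TiO2 higher for Actc1, Acta2 and Actn2, against 19.4% of all genes, and with nano-TiO2 lower for Tnnc1, against 2.96%.

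Mybpc3 had adjusted levels of 32765, 41353 and 30962 in sham libraries and 40892, 48042 and 45124 in nano-TiO2 libraries. Sham replicate 2 was above nano-TiO2 replicate 1, and the other sham libraries lay below all nano-TiO2 libraries. On the log2 scale its difference was 0.36 ± 0.11 (SE), with an adjusted p of 0.179 in limma. Actn2 had 30741, 33749 and 30687 in sham libraries and 36668, 36734 and 39353 in nano-TiO2 libraries. All nano-TiO2 libraries lay above the sham libraries, the opposite order to that on the normalized scale. The log2 difference was 0.25 ± 0.07 (SE), with an adjusted p of 0.179 in limma. Without sham replicate 2, Actn2 rose by 0.29 with an adjusted p of 0.0298 and Mybpc3 by 0.49 with an adjusted p of 0.0277 (limma), in a fit with 2 sham libraries that called 1878 genes, 8.32% of all genes being higher.

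Actc1 had adjusted levels of 199638, 195816 and 199905 in sham libraries and 223530, 214616 and 223536 in nano-TiO2 libraries. This order too was opposite to that on the normalized scale. On the log2 scale its difference was 0.15 ± 0.05 (SE), with an adjusted p of 0.212 in limma. Tnnc1 had 77473, 73610 and 71585 in sham libraries and 69448, 63962 and 66047 in nano-TiO2 libraries. It kept its order on both scales. The log2 difference was -0.16 ± 0.06 (SE), with an adjusted p of 0.229 in limma. With array quality weights, which let libraries count unequally, Actc1, Actn2 and Mybpc3 were called higher and Tnnc1 lower, among 5011 genes called, or 22.5% of all genes higher and 3.43% lower.

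For the other genes the adjusted differences were near 0. Tnnt2, Tpm1 and Tnni1 stood at 0.01, 0.00 and -0.02 on the log2 scale, Tnni3 at -0.06, Acta2 at 0.09 and Acta1 at 0.11. The 95% intervals were -0.17 to 0.20 for Tnnt2, -0.16 to 0.17 for Tpm1 and -0.16 to 0.13 for Tnni1. Acta2 had adjusted levels of 32457, 33991 and 32301 in sham libraries and 35340, 35140 and 34413 in nano-TiO2 libraries, so the gene that fell on the normalized scale was higher in every nano-TiO2 library on this one, with an adjusted p of 0.451 in limma. Tnni1 had 112651, 118263 and 106902 in sham libraries and 107242, 116530 and 110282 in nano-TiO2 libraries. These groups overlapped. With TMM scaling of the adjusted values, Actc1, Acta1, Acta2, Tnnt2 and Tpm1 moved below 0, to between -0.16 and -0.01.

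**Figure D2:**
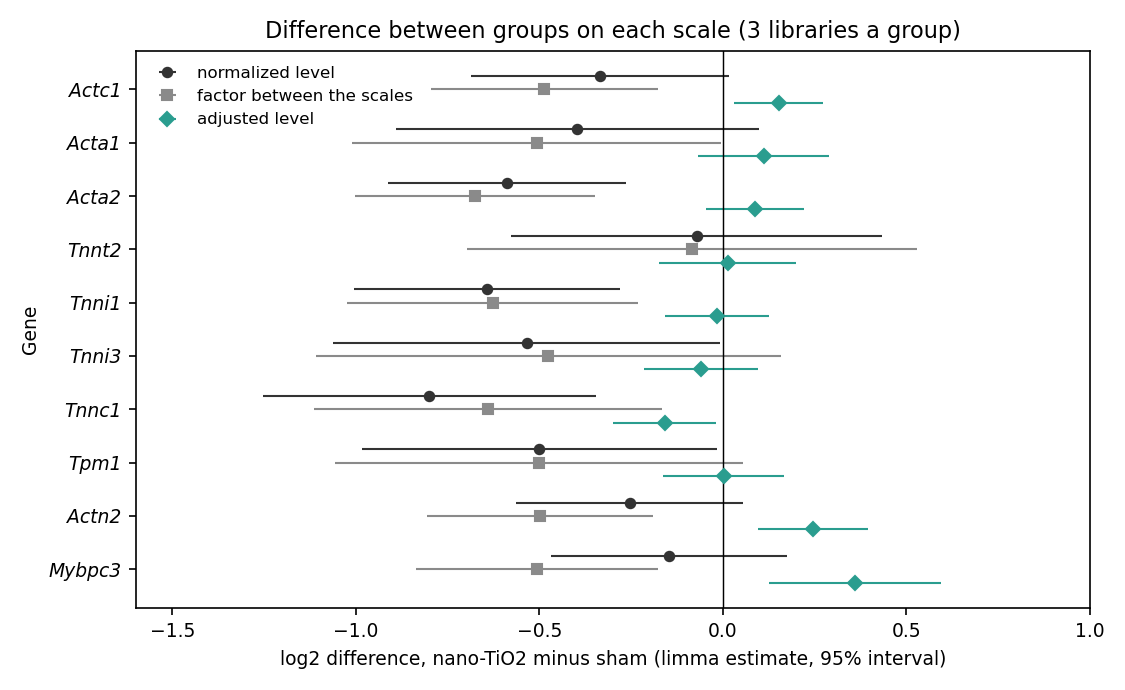
Log2 difference between nano-TiO2 and sham for each gene from limma, with 95% intervals, on the normalized scale (circles), for the factor between the scales (squares) and on the adjusted scale (diamonds). The circles run from -0.80 for Tnnc1 to -0.07 for Tnnt2, while the diamonds lie between -0.16 and 0.36.

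The factor that separates the scales was set beside these levels. It was lower in nano-TiO2 by limma for Actc1, Acta2, Tnni1, Actn2 and Mybpc3, that is 5 of 10 genes against 15.3% of the 13812 genes whose factor could be recovered, and higher for none, against 13.1%. For Acta2 it was 1.32, 1.29 and 1.08 in sham libraries and 0.756, 0.794 and 0.755 in nano-TiO2 libraries. That is a fall of 0.68 ± 0.14 (SE) on the log2 scale, with an adjusted p of 0.0195 in limma. For Mybpc3 it was 1.15, 1.06 and 1.31 in sham libraries and 0.837, 0.846 and 0.791 in nano-TiO2 libraries, a fall of 0.51 ± 0.14 (SE) with an adjusted p of 0.0366 in limma. The groups did not overlap in 7 of 10 genes, each lower in nano-TiO2, against 30.1% of all genes. These shares are over genes of all levels, and for the factor the share at like level was not computed. For Tnnt2 the factor was 0.840, 0.971 and 1.25 in sham libraries and 1.16, 0.656 and 1.12 in nano-TiO2 libraries, and the groups overlapped. The largest factor came from sham replicate 3 and the smallest from nano-TiO2 replicate 2 in 7 of the 10 genes each. These calls were fragile: leaving out any 1 library ended the calls of Actc1, Tnni1, Actn2 and Mybpc3. Among these fits Acta2 passed only without sham replicate 3 or nano-TiO2 replicate 2. Calls over all 13812 genes were lost as well. The fit lacking sham replicate 2 called 0 genes, and so did each fit lacking replicate 1 or 3 of the nano-TiO2 group. Dropping sham replicate 1 left 367 genes called lower, against 2116 with all libraries. The fits in which Acta2 passed called 1637 and 1920 genes lower, in that order. With each library centred on its median, Acta2 alone was called, against 5.78% of all genes lower and 16.1% higher.

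The third comparison asked whether the balance of isoforms differed. For troponin I, the ratio of Tnni1 to Tnni3 on the normalized scale was 2.08, 1.94 and 1.61 in sham libraries and 1.61, 2.07 and 1.56 in nano-TiO2 libraries. The fetal isoform was thus above the adult one in every library by summed level. Per window the ratio was 1.07 ± 0.13 in sham libraries and 0.994 ± 0.16 in nano-TiO2 libraries (SD, n = 3), where 86 of the 144 windows of Tnni1 but 9 of the 82 of Tnni3 averaged under 1 read. Over the windows that averaged 10 reads or more, the median window of Tnni1 was 1.57 ± 0.20 times that of Tnni3 in sham libraries and 1.43 ± 0.18 times in nano-TiO2 libraries (SD, n = 3), so the ratio per length depends on whether nearly empty windows count. The groups overlapped, and the log2 difference was -0.11. The exact permutation test of 3 against 3, two-sided and with a smallest p of 0.1, gave p = 0.5 and an adjusted p of 0.72 over 3 ratios on 2 scales. On the adjusted scale the ratio was 1.81, 1.76 and 1.70 in sham libraries and 1.86, 1.76 and 1.81 in nano-TiO2 libraries. The spread was much smaller there, with means of 1.76 ± 0.057 and 1.81 ± 0.049 (SD, n = 3), and the log2 difference turned to 0.04 (p = 0.3 in the exact permutation test, adjusted 0.6). With 3 libraries a group this test cannot reach 0.05, so no outcome could have been called.

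The ratio of Acta2 to Actc1 was 0.185, 0.189 and 0.152 in sham libraries and 0.138, 0.171 and 0.133 in nano-TiO2 libraries on the normalized scale. The groups overlapped, with a log2 difference of -0.25 (p = 0.2 in the exact permutation test, adjusted 0.6). On the adjusted scale the difference was -0.06 (p = 0.3 in the exact permutation test, adjusted 0.6). The ratio of Acta1 to Actc1 was 0.0224, 0.0224 and 0.0179 in sham libraries and 0.0245, 0.0240 and 0.0134 in nano-TiO2 libraries. Nano-TiO2 replicates 1 and 2 were above every sham library and replicate 3 was below them all, so the log2 difference of -0.06 (exact permutation p = 1.0) became 0.22 (exact permutation p = 0.2) without nano-TiO2 replicate 3. With 3 libraries against 2, 0.2 is the smallest p this test can give.

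**Figure D3:**
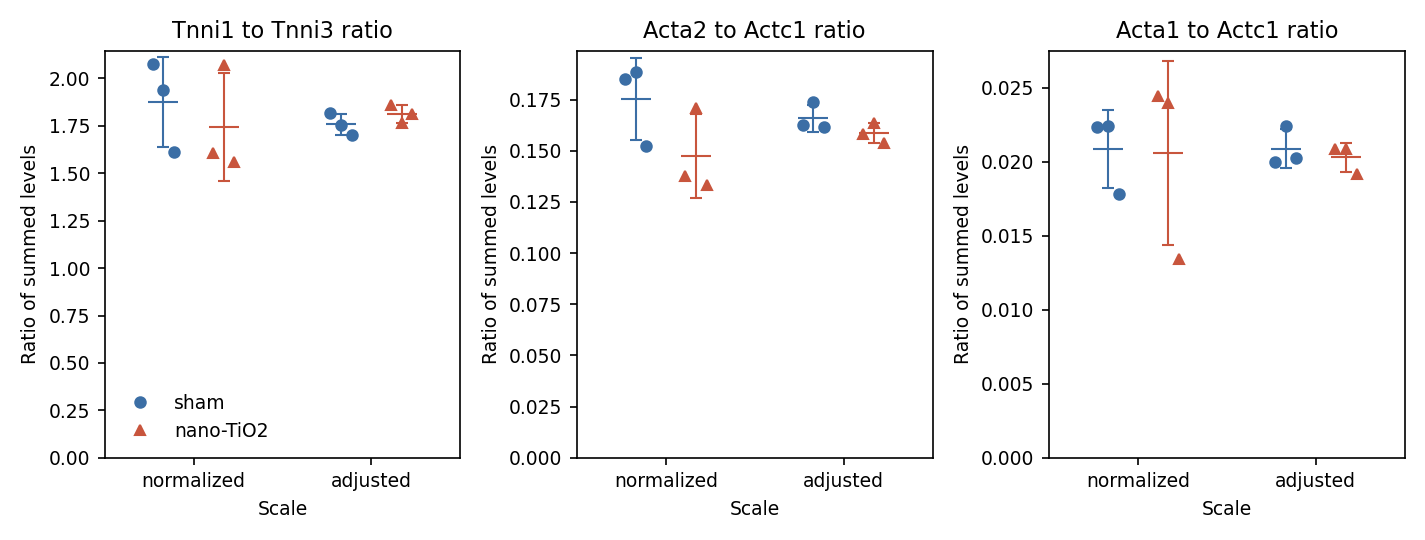
Ratios of summed levels between isoforms in each library on the normalized and adjusted scales, from 0; circles are sham and triangles nano-TiO2 libraries, and bars are the mean ± SD of 3. The groups overlap in every panel, and the spread is smaller on the adjusted scale.

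Along the transcripts, 760 windows of the 10 genes passed the filter of 10 normalized reads on average and were tested. In nano-TiO2 hearts 72 of them fell and 15 rose, or 26 in Acta2, 22 in Tnnc1 and 20 in Tnni1, 2 in Tpm1 and 1 each in Tnnt2 and Acta1 for the falls, and Tnnt2 alone for the rises. Over all 250317 windows tested 7.32% fell and 3.88% rose (limma, Benjamini-Hochberg). The filter took the mean over all 6 libraries, so a window could pass through the nano-TiO2 libraries alone. In Tnnt2 the window at 2726 averaged 6.24 reads in sham and 22.1 in nano-TiO2 libraries. The filter can thus favour rises in windows of few reads, so the rises counted under it are not used as support. With TMM scaling 18 of the 760 rose and 1 fell, while 5.49% of all windows rose and 2.82% fell. Of the 656 windows that averaged 50 reads or more 119 fell and 1 rose. Over all 57169 such windows 34.8% fell and 2462 windows rose. With 1 library left out, 4 to 31 of the 760 windows fell and 1 to 10 rose. Over all 250317 windows 7334 to 14435 then fell and 3250 to 8493 rose. The falls lay in the windows with many reads: of 326 windows with a mean of at least 500 reads 69 fell in a fit that took in all windows averaging 1 read or more, which is 21.2% against 48.7% of all windows at that level, and the median log2 difference was -0.49. The 295 windows with a mean of 1 to 10 had a median of 0.89, and none fell while 9 rose. Of all 774539 windows at that level only 0.0314% fell and 6541 rose, so the lack of falls is not particular to these genes. Over all genes the same bands had medians of -0.67 and 0.38.

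Tnnt2 had the most low windows; it had 201 windows with a mean of 1 to 50 reads beside 45 with at least 500. The high windows summed to 133886 ± 27475 reads in sham libraries and 126603 ± 27326 in nano-TiO2 libraries (SD, n = 3), a ratio of 0.946, with the groups overlapping. The low windows summed to 757, 688 and 893 reads in sham libraries and 1818, 1698 and 1500 in nano-TiO2 libraries. All nano-TiO2 libraries lay above all sham libraries, at 2.14-fold. Windows entered this class by their mean over all 6 libraries, so some came in through nano-TiO2 reads alone; with the 146 windows whose sham mean was 1 to 50 the fold was 2.03, and with the 229 chosen by the nano-TiO2 mean it was 2.19. The split into low and high windows was made after the data were seen, and it has no test. Since the adjusted scale divides all windows of a gene alike, the balance of low and high windows within a gene is the same on both scales but for rounding. Low-window reads per 100 high-window reads were higher in every nano-TiO2 library for Acta2, Tnnt2, Tnni3, Tnnc1 and Tpm1, which is 5 of the 9 genes that have both kinds of window, against 22.7% of the 388 genes in the tables that have both. With windows chosen by the sham mean Tpm1 overlapped, which left 4 of the 9. For that choice the share over all genes was not computed, and the 22.7% does not serve for it. The low-window sum itself lay higher in every nano-TiO2 library for Tnnt2 alone. In Acta2, Tnni3, Tnnc1 and Tpm1 these sums overlapped between groups, at 1.05-fold in Acta2 to 1.37-fold in Tnnc1. Their high-window sums were lower on average in nano-TiO2, from 0.581-fold in Tnnc1 to 0.698-fold in Tpm1. Part of the higher ratio in these genes thus came from fewer high-window reads. For Tnnc1 the low-window reads per 100 high-window reads were 0.101, 0.119 and 0.118 in sham libraries and 0.241, 0.299 and 0.271 in nano-TiO2 libraries. For Tnni1 they were 0.0905 ± 0.023 in sham libraries and 0.0921 ± 0.0067 in nano-TiO2 libraries (SD, n = 3), and the groups overlapped. On the scale of the whole library, nano-TiO2 libraries also held reads in more windows, 1271555 to 1484331 against 997523 to 1145132 in sham.

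**Figure D4:**
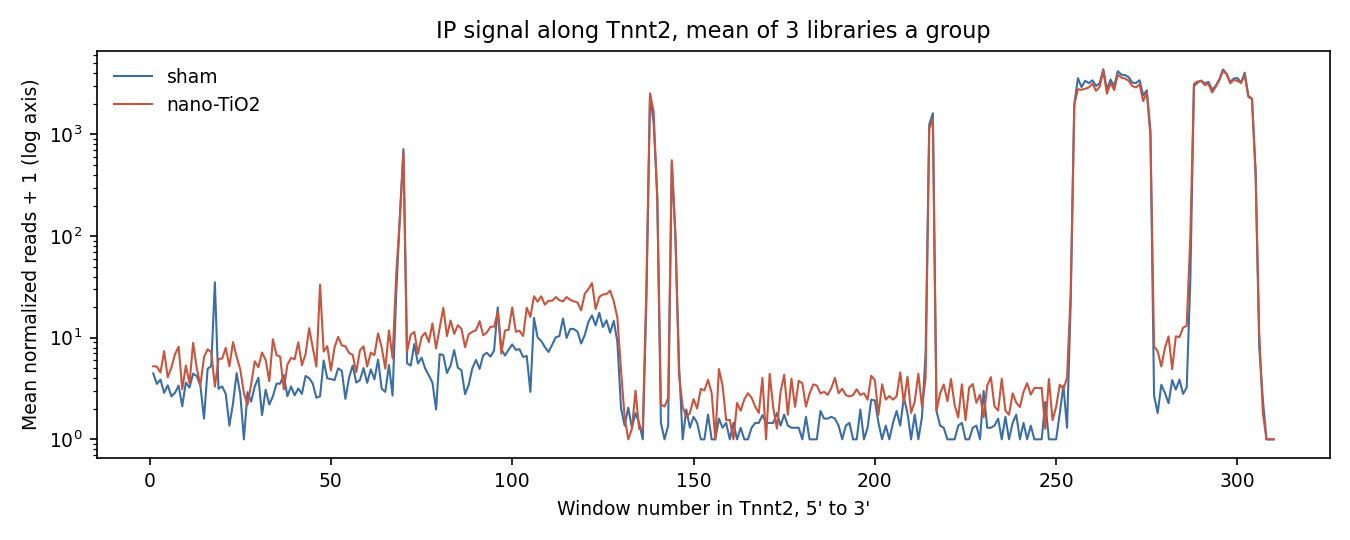
Mean normalized reads (plus 1, log axis) in each of the 310 windows of Tnnt2, from 5′ to 3′, for 3 sham and 3 nano-TiO2 libraries. The lines coincide over the high blocks and separate in the low windows, which summed to 780 reads in sham libraries and 1672 in nano-TiO2.

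The within-gene test asked which windows departed from the rest of their gene. It called 10 of the 760 windows, against 0.0465% of all windows (limma diffSplice, Benjamini-Hochberg). Without nano-TiO2 replicate 1 it called 5 of the 760, against 0.0349%. With all libraries and only the 656 windows that averaged 50 reads or more it called 1, against 0.0176%. Of the 10 windows 4 were in Acta2 and 3 in Tnnc1, all windows of few reads that held up better than their gene. 1 window of Tnnt2, which starts at position 426 of the gene's window coordinates, had 38.7, 4.38 and 59.5 reads in sham libraries and 1.12, 4.97 and 0.81 in nano-TiO2 libraries. Sham replicate 2 did not share the signal of the other sham libraries. Another, at 1151, had 0.90, 0 and 4.05 reads in sham libraries and 7.81, 79.4 and 9.66 in nano-TiO2 libraries. Most of that signal came from nano-TiO2 replicate 2. Both Tnnt2 windows passed the filter of 10 reads only through the group where they were high. Mean reads in sham and nano-TiO2 libraries were 34.2 and 2.30 at 426, and 1.65 and 32.3 at 1151. The last was the Tnni1 window at 2376, with 37.8, 456 and 401 reads in sham libraries and 29.0, 19.9 and 255 in nano-TiO2 libraries and an adjusted p of 0.0387 in the within-gene test. It was low in sham replicate 1 and high in nano-TiO2 replicate 3, so its libraries did not separate by group.

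Signal was higher towards the 3′ end in several of the genes, among them Mybpc3 and Actn2. For Mybpc3, the first 10% of the windows that averaged 10 reads or more held 99.4 ± 16.0 reads per window in sham and the last 10%, at the 3′ end, 582 ± 99.1 (SD, n = 3). In nano-TiO2 libraries these were 104 ± 34.8 and 462 ± 69.6 reads. The ratio of nano-TiO2 to sham thus went from 1.05 at the 5′ end to 0.794 at the 3′ end in Mybpc3, and from 0.980 to 0.776 in Actn2. In Actc1 it went from 0.880 to 0.745. In Acta2 the level dropped at the 3′ end, to 11.6 ± 1.5 reads in sham libraries and 12.8 ± 1.8 in nano-TiO2 libraries in the last 10% of windows.

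The level in the 25% of these windows nearest the 3′ end over that in the 25% nearest the 5′ end was 4.33, 7.17 and 4.11 in sham libraries and 3.62, 3.01 and 6.42 in nano-TiO2 libraries for Mybpc3. Sham replicate 2 and nano-TiO2 replicate 3 stood highest, and the groups overlapped. Actn2 ran in parallel, with sham values of 4.45, 7.43 and 4.11 against nano-TiO2 values of 3.61, 3.27 and 6.13. Mean ratios in sham and nano-TiO2 libraries were 54.1 and 46.1 in Tnnt2 and 2.07 and 1.82 in Actc1. They were 1.73 and 1.70 in Tnni3, 1.58 and 1.52 in Tnni1 and 1.22 and 1.14 in Acta1. Acta2, at 0.716 and 0.667, and Tpm1, at 0.0173 and 0.0299, lay below 1. Tpm1 alone had a log2 difference above 0, at 0.80 with an adjusted p of 0.809 in limma. In Tnnc1, the gene with the fewest windows here, the ratio differed between groups by less than the spread, 0.828 ± 0.012 in sham libraries and 0.825 ± 0.0082 in nano-TiO2 libraries (SD, n = 3). None of the 10 genes passed the test of this ratio, and neither did any of 5981 genes (limma, Benjamini-Hochberg), while 386 had an unadjusted p under 0.05. The share of a gene's reads in the last 25% of its windows, in the order of the file, was called for 0.286% of 12227 genes and for none of the 10 (limma, Benjamini-Hochberg).

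**Figure D5:**
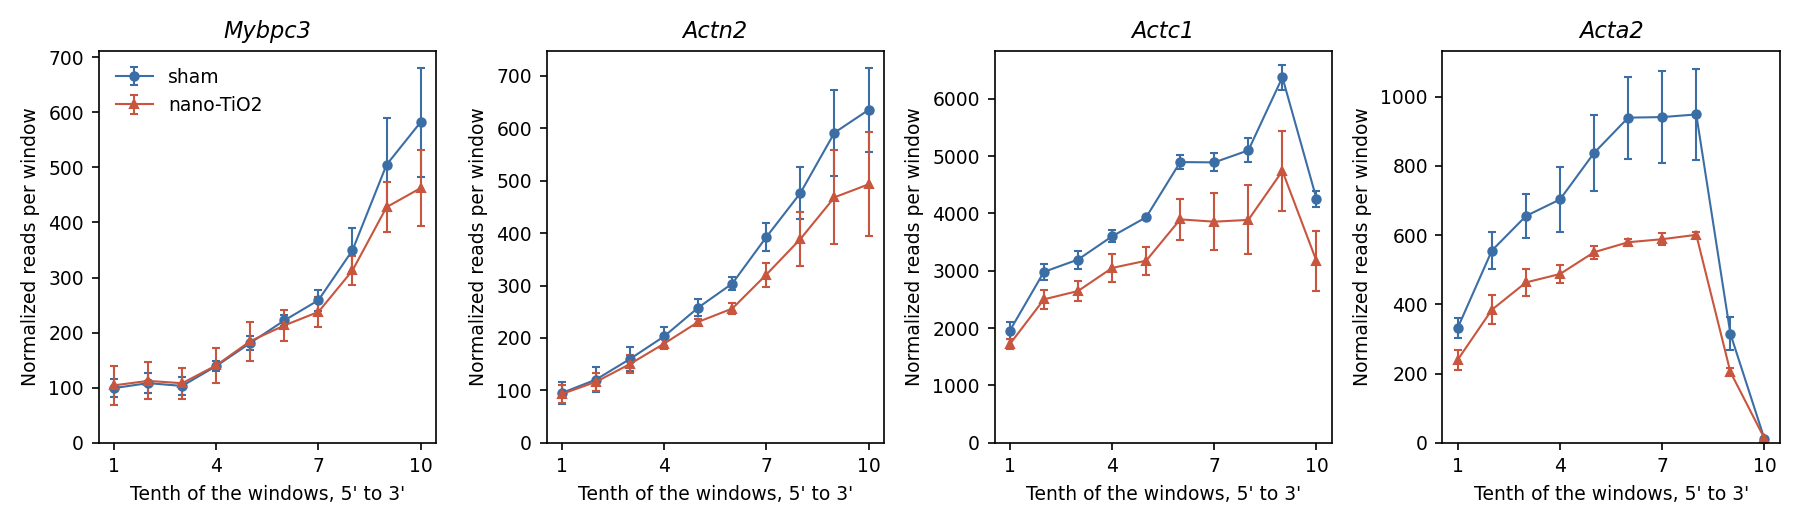
Mean normalized reads per window in each successive 10% of the windows, from 5′ to 3′, for Mybpc3, Actn2, Actc1 and Acta2; points are group means and bars SD of 3 libraries. The group means of Mybpc3 and Actn2 lie close at the 5′ end and further apart at the 3′ end, where the SD bars overlap. The test of the 3′ to 5′ ratio called neither gene. The mean of Acta2 is lower in nano-TiO2 over all but the last 10% of windows.

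The highest window of each gene held a small part of its reads. In Tnnc1 it held 5.77% to 6.12% of the gene's reads over the 6 libraries, in Tnnt2 3.21% to 3.30% and in Tnni1 3.98% to 4.29%. It varied most in Acta1, from 2.52% to 3.98%. In Mybpc3 it held 1.52% to 2.14%, the lowest share of the 10 genes. The highest window stood at 1.49 times the median tested window in Tnnc1 and at 3.72 times in Mybpc3, and at 7.16 times in Tpm1, whose reads lay in 51 windows with a mean of at least 500 among 259.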

How the data were processed

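Per the labels' protocols, 6 anti-m6A IP libraries were made from 3 µg of total RNA and 5 µg of a polyclonal antibody each; input libraries were not used here. The submitters' processing notes name HISAT2 2.2.1, Salmon 1.5.2, DESeq2 1.34.0 and GRCm39 without a role or order; the making and counting of windows and the strand setting are not given in the sources used here. The authors deposited a normalized signal per window: 100% of values are whole reads over 1 size factor per library (tolerance 0.0001). The authors also deposited an adjusted score, the normalized value over 1 factor per gene and library, rounded, with 0 exceptions in 162014 pairs of gene and library.

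A gene's level was the sum of its windows. Features averaging 10 or more were tested with limma 3.58.1 (trend) on log2(value + 1), which understates changes of low genes, in R 4.3.3, two-sided, with Benjamini-Hochberg adjustment over all features at 0.05 and no covariates. Windows within genes were tested with diffSplice, and ratios with exact permutation tests (SciPy 1.17.1). On recovered reads edgeR 4.0.16 called 6932 and DESeq2 1.42.0 called 7316 of 18566 genes, against 6676 by limma. Scripts were tested on simulated data. Python 3.11.15, NumPy 2.4.6, pandas 2.3.3 and matplotlib 3.10.9 were used.

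File order follows the genome: the first 2 windows were 25 nucleotides apart in the 4 genes on the plus strand and not in the 6 on the minus strand, so the order was reversed for the latter. Symbols of the 10 genes came from the list that defines them, and all 10 are named. The members and lists were chosen with earlier results of these data known. Other sarcomere genes and cell type markers were listed by symbol, but the RefSeq table pairs 0 Ensembl IDs, so those lists were not tested.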

Additional observations from a re-analysis of the deposited data

How the results depend on the processing

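The alternatives were fits and scalings of the same 6 libraries. Over all genes the normalized level gave 6676 calls and 2818 with the median of a gene's windows, where only 8877 genes had a window to test. The adjusted level gave 0 calls, 5011 with array quality weights and 0 to 1878 with 1 library left out; the factor gave 3926 and 0 to 3672. Tests of windows gave 28052 calls and 12114 to 21647 with 1 library left out. The share of reads in the last 25% of windows gave 35 calls, 2 for the last 10%, 88 at a mean of at least 500, 38 with windows turned to run 5′ to 3′ and 0 to 1 with 1 library left out. The within-gene test gave 116 calls, 656 at a mean of at least 1 and 10 at a mean of at least 50.

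The deviations of same-numbered libraries from their group means correlated at -0.37, 0.18 and 0.02. Not every library correlated best with its own number. With 3 libraries a group, these correlations cannot settle whether the numbers pair the samples. With the replicate block the normalized level gave 6415 calls, with Acta2, Tnni1 and Tnnc1 still called, the factor 1182, none of them among the 10 genes, and the share in the last windows 0.

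Values that turned sign on the normalized level were, with equal totals, Actc1 0.16, Acta1 0.10, Tnnt2 0.43, Actn2 0.24 and Mybpc3 0.35; with equal totals outside the 4 most abundant IDs, Tnnt2 0.20, Actn2 0.017 and Mybpc3 0.13; after quantile normalization, Actc1 0.052, Tnnt2 0.67, Tnni1 0.066, Tnni3 0.022, Tpm1 0.054, Actn2 0.18 and Mybpc3 0.34; and Tnnt2 0.13 with array quality weights and -0.24 to 0.12 with 1 library left out. On the adjusted level they were, with TMM scaling, Actc1 -0.0085, Acta1 -0.049, Acta2 -0.073, Tnnt2 -0.15 and Tpm1 -0.16; with the window trend removed, Acta2 -0.023, Tnnt2 -0.28 and Tpm1 -0.27; with equal totals outside the 4 IDs, Tnnt2 -0.021 and Tpm1 -0.032; with equal totals, Tnni1 0.011; after quantile normalization, Tnni1 0.11 and Tnni3 0.047. With 1 library left out the adjusted range was -0.063 to 0.084 for Tnnt2, -0.053 to 0.020 for Tnni1 and -0.048 to 0.068 for Tpm1. The factor of Tnnt2 stood at 0.047 when centred and at -0.23 to 0.18 with 1 library left out; the 3′ to 5′ ratio, added after seeing the data, spanned -0.073 to 0.018 for Tnni3 and -0.013 to 0.0063 for Tnnc1. The ratio of Tnni1 to Tnni3 was 0.044 on the adjusted scale (log2), and with 1 library left out it spanned -0.24 to -0.031; that of Acta1 to Actc1 spanned -0.21 to 0.22. The cause of each turn was not tested. Of these values, Tnni1 on the normalized level alone was called as deposited. With 3 libraries a group, small differences are beyond what these tests can show.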
